A study of Mus musculus with 18 samples.

Results

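The genes described here are 8 transcripts of ion channels, transporters and pumps of the retinal pigment epithelium (RPE), the pigmented cell sheet behind the photoreceptors. They are Atp1b1, Kcnj13, Slc12a2, Slc4a2, Clcn2, Best1, Ano5 and Aqp1, chosen by gene symbol from a table of 21859 genes, with results of the same libraries known. All 8 were found and all 8 passed the filter on low counts. Their levels and fold changes are therefore a description, printed without p-values, and counts of calls among them (defined below) support nothing. Tests are given for 49 other transport genes, none of them among the 8. That list was also chosen with earlier results of these data known, which limits what its p-values can support.

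Bulk RNA sequencing was done on 18 mouse RPE libraries in 4 groups. Young (7 libraries) is RPE of young mice and Old (4 libraries) is RPE of aged mice, neither with a vector named in the labels. Old-Control (3 libraries) is aged RPE collected after AAV2-tTA, an adeno-associated virus vector carrying tTA, a tetracycline-controlled transactivator. Old-OSK (4 libraries) is aged RPE collected after AAV2-tTA together with TRE-OSK, in which a promoter that answers to tTA drives 3 reprogramming factors: Oct4 (whose gene is Pou5f1), Sox2 and Klf4. Both vector groups thus share AAV2-tTA. The strain, the ages in weeks or months, the vector dose, the time after injection, the promoter that drives tTA and any pooling of animals are not given in the sources used here. The labels do not say that replicates came from separate animals, so p-values measure the spread between these libraries, which may be technical.

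The RPE moves ions and water from the photoreceptor side (apical) to the choroid side (basolateral). In most epithelia the sodium pump sits on the basolateral side, but in the RPE it sits on the apical side, where it works with the apical potassium channel Kir7.1 and a sodium, potassium and chloride cotransporter. Chloride leaves through basolateral channels, bicarbonate is handled by exchangers and cotransporters, and water follows.

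Library totals lay between 18104828 and 32348136 counts. As a check of the labels, Pou5f1 had a library-scaled count (CPM) of 50.2 to 97.4 in Old-OSK and of at most 3.75 in any other library, while Klf4 overlapped, at 155 to 431.6 CPM in Old-OSK and up to 216.2 CPM in Old. Tissue identity was checked with 10 RPE markers (among them Rpe65, Rlbp1 and Lrat), none of which was at 0 in all libraries. Their summed level was 39510 to 65550 CPM in Young, 27010 to 47380 in Old, 20250 to 62800 in Old-Control and 15210 to 29840 in Old-OSK. A score for these markers, their mean log2 CPM, was 10.6 to 11.2 in Young and 9.11 to 9.9 in Old-OSK. Old replicate 4 (9.99) and Old-Control replicate 2 (9.46) had the lowest scores of their groups, and on the first principal component of all genes these libraries lay among the Old-OSK libraries. Rod markers, from neighbouring retina, summed to 141.9 to 2772 CPM in Young, 1925 to 6948 in Old, 1473 to 17530 in Old-Control and 2615 to 14790 in Old-OSK. In addition, 6 libraries have an unexplained M in their names: replicates 5, 6 and 7 of Young, 2 and 3 of Old-Control, and 4 of Old-OSK. These had 4040 to 5493 counts on Y-linked genes, carried by males only, against at most 93 in the other 12. The 6 libraries thus hold male RNA. No Old library has an M, so this difference is mixed into Old against Young. In bulk RNA, fewer cells of a type and less RNA per cell cannot be told apart.

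Promoter sequences came from RefSeq (GRCm38.p6), which matched 7 of the 8 genes. The windows of 250 bases before the listed start are shown for Kcnj13, Atp1b1 and Best1. There they lie directly before the annotated gene, and the bases after the start lie in a GENCODE M21 transcript. They were picked because Kcnj13 and Atp1b1 varied together across the libraries while Best1, widely used as an RPE gene, was barely detected. They are printed in the direction of transcription, with capitals on matches, on either strand, to TAATCC (the core bound by OTX2), CATGTG (an M-box core, bound by MITF), GGGCGG (the site of Sp1) or TATAAA (the site of the TATA-binding protein). CACGTG, an E-box, was also searched.
Kcnj13, chr1:87394730-87394979, minus strand: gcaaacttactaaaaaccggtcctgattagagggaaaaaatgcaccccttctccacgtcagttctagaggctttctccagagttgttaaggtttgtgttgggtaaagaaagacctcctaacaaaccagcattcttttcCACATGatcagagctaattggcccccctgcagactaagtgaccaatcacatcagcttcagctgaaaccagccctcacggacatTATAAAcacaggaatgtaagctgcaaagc
Atp1b1, chr1:164458356-164458605, minus strand: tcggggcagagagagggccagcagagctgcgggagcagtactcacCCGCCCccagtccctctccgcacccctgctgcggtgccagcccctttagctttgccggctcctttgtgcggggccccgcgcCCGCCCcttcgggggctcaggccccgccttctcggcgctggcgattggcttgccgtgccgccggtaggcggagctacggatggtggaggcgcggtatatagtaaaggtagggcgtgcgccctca
Best1, chr19:10001634-10001883, minus strand: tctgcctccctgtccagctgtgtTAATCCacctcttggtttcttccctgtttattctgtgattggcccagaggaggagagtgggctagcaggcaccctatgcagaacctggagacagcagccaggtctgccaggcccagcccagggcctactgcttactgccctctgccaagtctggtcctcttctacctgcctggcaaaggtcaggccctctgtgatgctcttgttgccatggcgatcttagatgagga
The Kcnj13 window held CACATG, which is CATGTG on the other strand, 112 bases before the start, and TATAAA 29 bases before it. The Atp1b1 window held GGGCGG on the other strand 205 and 124 bases before the start, and the Best1 window held TAATCC 227 bases before it. None of the 3 windows held CACGTG. Of 32851 promoter windows of this length, 12.3% held CATGTG, 12.4% TATAAA, 32.7% GGGCGG, 6.25% TAATCC and 6.02% CACGTG. Kcnj13 and Atp1b1 shared none of these motifs, and their windows differed in composition (45.2% and 70.4% G or C, against a median of 52.4% over all windows). A match describes letters and shows no binding.

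Levels differed widely among the 8 genes. Per kilobase of exon (GENCODE M21 gene models), the means over all 18 libraries were 248.2 CPM per kb for Atp1b1, 236.5 for Kcnj13, 81.3 for Slc4a2, 28.01 for Slc12a2, 25.32 for Clcn2 and 23.9 for Aqp1. Ano5 (1.104 CPM per kb) and Best1 (0.5703 CPM per kb) were far lower. Best1 rested on 8 to 83 counts per library and Ano5 on 91 to 487, whereas every other member had at least 239. The library kit does not mark strand, so reads from overlapping genes on the opposite strand cannot be separated. This concerns 623 of 1270 exonic bases of Kcnj13 (Gigyf2), 575 of 3081 of Atp1b1 (Nme7), 1141 of 8322 of Slc4a2 (Fastk and Gm22333) and 167 of 6022 of Clcn2 (Fam131a and Polr2h).

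**Figure D1:**
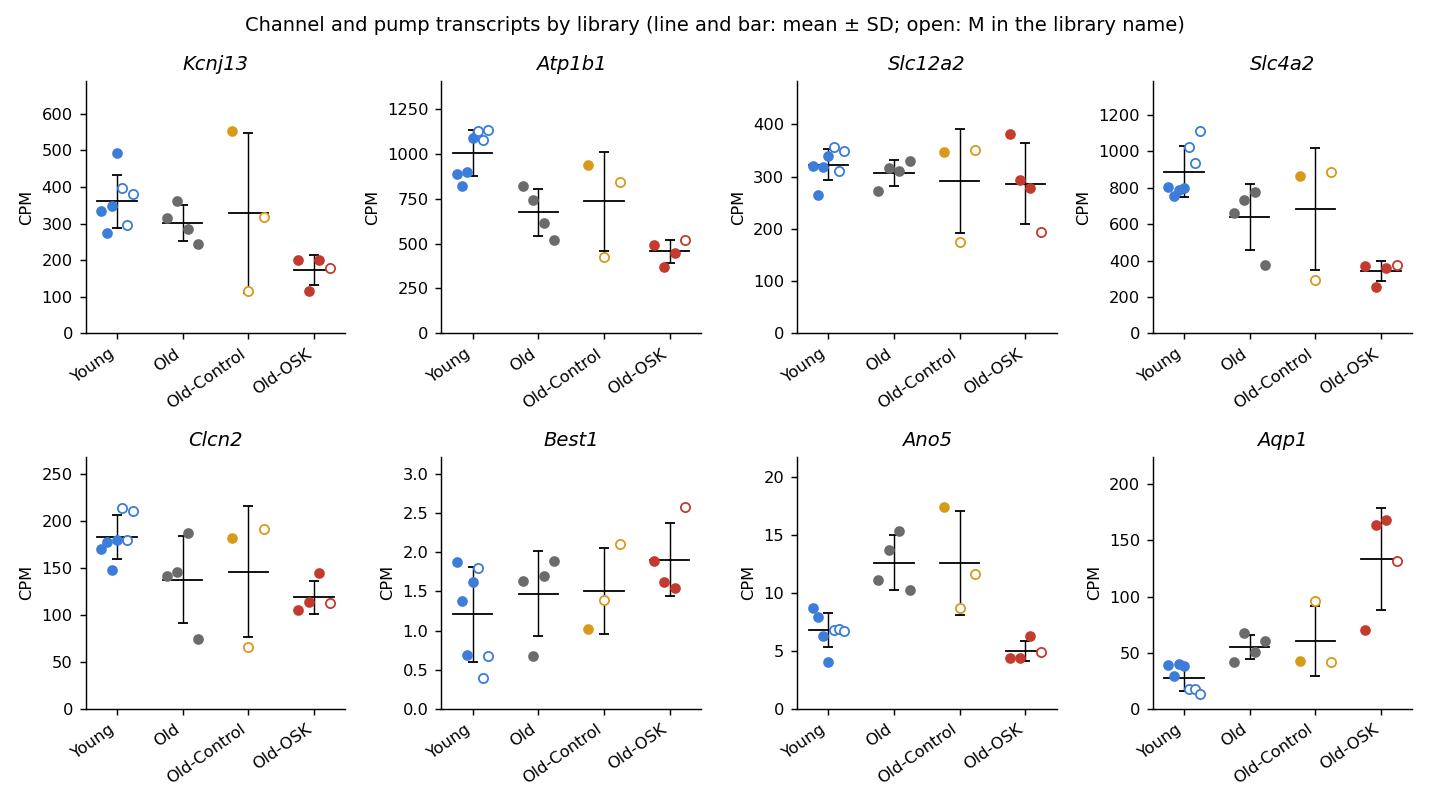
CPM (linear axis from 0) of the 8 genes in each library; points are libraries coloured by group (open where the library name has an M), and the bars give the group mean and SD. Ano5 was 10.2 to 15.3 in Old and 4.41 to 6.28 in Old-OSK, while Aqp1 was 13.4 to 39.7 in Young and 70.4 to 168 in Old-OSK.

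Atp1b1 encodes the beta-1 subunit of the sodium pump, which the pump needs to reach the membrane. Young libraries ranged from 822 to 1131 CPM (median 1076). The Old libraries had 819, 743, 615 and 522 CPM, the Old-Control libraries 941, 423 and 846, and the Old-OSK libraries 490, 369, 450 and 520. Every Old library lay below every Young library, while the Old-OSK range took in Old-Control replicate 2. Group means were 1004 ± 129.7 (SD, n = 7), 674.8 ± 131.8 (n = 4), 736.5 ± 275.7 (n = 3) and 457.1 ± 65.34 CPM (n = 4). In order of level, Old-OSK lay below Old without overlap, and Old, Old-Control and Young overlapped stepwise. The log2 fold change was -0.57 (SE 0.19) in Old against Young and -0.69 (SE 0.23) in Old-OSK against Old-Control. Left out of the fit, Old-Control replicate 2 took the second value to -0.99.

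Kcnj13 encodes Kir7.1, the apical channel that returns to the photoreceptor side the potassium the pump brings in. It lies at chr1:87384577-87394729 (GRCm38), minus strand. Young libraries ranged from 274 to 494 CPM (median 349). The Old libraries had 315, 361, 284 and 243 CPM, the Old-Control libraries 552, 116 and 318, and the Old-OSK libraries 200, 115, 199 and 178. All 4 Old-OSK libraries lay below all Young and all Old libraries, but Old-Control held both the highest value of the 18 and one within the Old-OSK range. The log2 fold change was -0.26 (SE 0.29) in Old against Young and -0.92 (SE 0.35) in Old-OSK against Old-Control. Single libraries moved the latter a great deal: it was -0.32 without Old-Control replicate 1 and -1.35 without Old-Control replicate 2.

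Slc12a2 encodes NKCC1, the cotransporter that loads chloride into the cell. Its 4 group means lay closest together, relative to their level, of the 8 genes. Its means were 322.7 ± 30.28 CPM in Young (n = 7), 306.7 ± 24.43 in Old (n = 4), 291.2 ± 100.2 in Old-Control (n = 3) and 286.3 ± 76.86 in Old-OSK (n = 4), and all neighbouring ranges overlapped. The widest departures were 176 CPM in Old-Control replicate 2 and 193 CPM in Old-OSK replicate 4, with 381 CPM in Old-OSK replicate 1. Its log2 fold changes were -0.07 (SE 0.18) in Old against Young and -0.02 (SE 0.22) in Old-OSK against Old-Control, small beside their errors, which does not show that the levels were equal.

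Slc4a2 encodes AE2, an exchanger of chloride for bicarbonate. It lies at chr5:24423761-24440947 (GRCm38), plus strand. Young libraries ranged from 754 to 1113 CPM (median 806). The Old libraries had 664, 733, 779 and 374 CPM, the Old-Control libraries 864, 294 and 885, and the Old-OSK libraries 371, 257, 361 and 377. Old replicate 4 and Old-Control replicate 2 thus stood at the Old-OSK level and the rest of their groups did not. The log2 fold change was -0.48 (SE 0.26) in Old against Young and -0.995 (SE 0.30) in Old-OSK against Old-Control. Without Old replicate 4 the first was -0.29, and without Old-Control replicate 2 the second was -1.38.

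Clcn2 encodes ClC-2, a chloride channel whose loss in mice leads to degeneration of the photoreceptors. It lies at chr16:20702435-20717746 (GRCm38), minus strand. Its means were 182.9 ± 22.97 CPM in Young (n = 7), 137.5 ± 46.54 in Old (n = 4), 146.2 ± 69.83 in Old-Control (n = 3) and 119 ± 17.53 in Old-OSK (n = 4). The lowest libraries were again Old-Control replicate 2 (65.8 CPM) and Old replicate 4 (74.9 CPM), both under the Old-OSK range of 105 to 145 CPM. The log2 fold change was -0.41 (SE 0.25) in Old against Young and -0.30 (SE 0.30) in Old-OSK against Old-Control, and all neighbouring ranges overlapped. The first value was -0.21 without Old replicate 4. The second was -0.06 without Old-Control replicate 3 and -0.68 without Old-Control replicate 2.

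Best1 encodes bestrophin-1, a calcium-activated chloride channel of the basolateral membrane that is mutated in Best vitelliform macular dystrophy. It lies at chr19:9985172-10001633 (GRCm38), minus strand, and shares no exonic base with another gene. Its range over all 18 libraries was 0.400 to 2.57 CPM, and the group means were 1.207 ± 0.6055 (Young, n = 7), 1.473 ± 0.5398 (Old, n = 4), 1.503 ± 0.5519 (Old-Control, n = 3) and 1.907 ± 0.4687 (Old-OSK, n = 4). All neighbouring ranges overlapped. The log2 fold changes were 0.29 (SE 0.39) in Old against Young and 0.35 (SE 0.48) in Old-OSK against Old-Control. No difference between groups was detectable at this depth.

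Ano5 encodes anoctamin-5, a member of the family of calcium-activated chloride channels and lipid scramblases that is best known from skeletal muscle, where its loss causes muscular dystrophy. It lies at chr7:51510007-51598707 (GRCm38), plus strand. Young libraries ranged from 4.04 to 8.71 CPM (median 6.77). The Old libraries had 11.1, 13.7, 15.3 and 10.2 CPM, the Old-Control libraries 17.4, 8.66 and 11.6, and the Old-OSK libraries 4.41, 4.41, 6.28 and 4.87. All Old libraries lay above all Young ones, and all Old-OSK libraries lay below all Old-Control and all Old ones. The means were 6.766 ± 1.468 CPM in Young (n = 7), 12.59 ± 2.354 in Old (n = 4), 12.57 ± 4.46 in Old-Control (n = 3) and 4.99 ± 0.8869 in Old-OSK (n = 4). The log2 fold change was 0.90 (SE 0.21) in Old against Young and -1.33 (SE 0.25) in Old-OSK against Old-Control. The Old and Old-Control means were alike, with a log2 difference of -0.00 (SE 0.25).

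Since Ano5 is known from muscle, skeletal muscle markers were set beside it. The 6 markers, among them Acta1 and Ckm, summed to 26.17 to 451 CPM in Young, 229.9 to 638.1 in Old, 452.3 to 1052 in Old-Control and 145 to 523.5 in Old-OSK. All 6 were higher in Old than in Young (median log2 fold change 0.54) and all 6 lower in Old-OSK than in Old-Control (median -1.43), and none was called. In Young the 4 libraries with the highest muscle sums (322.6 to 451 CPM, replicates 1, 2, 5 and 6) also had the 4 highest Ano5 values. In Old-Control, replicate 2 had the highest muscle sum of the 18 libraries and the lowest Ano5 of its group. With the muscle score as a covariate, chosen after seeing the data, Ano5 was 0.83 in Old against Young and -1.21 in Old-OSK against Old-Control. With the RPE score as a covariate these values were 1.03 and -0.96. The second comparison passed the call threshold (below) with neither covariate. The part of muscle RNA in the result was not tested otherwise.

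Aqp1 encodes aquaporin-1, a water channel also abundant in red blood cells and some endothelia. It lies at chr6:55336299-55348555 (GRCm38), plus strand. Young libraries ranged from 13.4 to 39.7 CPM (median 29.0). The Old libraries had 41.9, 67.3, 50.9 and 60.3 CPM, the Old-Control libraries 42.7, 96.4 and 41.7, and the Old-OSK libraries 70.4, 164, 168 and 132. Aqp1 was the one well-detected member whose mean was higher in both comparisons, with log2 fold changes of 0.98 (SE 0.32) and 1.15 (SE 0.41). All Old libraries lay above all Young ones, while Old-OSK overlapped Old-Control through replicate 2 of the latter. Without that replicate the second value was 1.63. Old-OSK and Old-Control libraries of the same number had 70.4 against 42.7, 163.9 against 96.4 and 168.1 against 41.75 CPM, higher in 3 of 3. The number alone does not make them pairs. Replicates 2 and 3 have an M in the name in Old-Control and none in Old-OSK. By number, Ano5, Atp1b1, Slc4a2 and Kcnj13 were lower in Old-OSK in 3 of 3, with Kcnj13 at 115.2 against 116.2 CPM in replicate 2. Clcn2, Slc12a2 and Best1 went both ways. The share over all genes was not counted, so nothing is read from this.

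Young Aqp1 also split by the M in the library name, at 29.0 to 39.7 CPM in the 4 libraries without it and 13.4 to 17.99 CPM in the 3 with it. Among libraries without M, 4 Young against 4 Old, the Aqp1 log2 fold change was 0.59 and that of Ano5 0.90, neither called. In Old-OSK against Old-Control, the mean log2 CPM of Aqp1 differed by 1.55 without M (3 libraries against 1) and by 1.05 with M (1 against 2), and that of Ano5 by -1.80 and -1.03. For Kcnj13 these differences were -1.73 and -0.11, and for Slc4a2 -1.41 and -0.44. Red blood cell markers summed to 60.37 to 263.6 CPM in Young, 89.36 to 146.8 in Old, 72.42 to 119.9 in Old-Control and 57.49 to 286.6 in Old-OSK. Endothelial markers summed to 56.81 to 212.5, 77.32 to 266.1, 140.2 to 165.9 and 53.78 to 225.3 CPM. In Old against Young all 7 endothelial markers were positive (median log2 fold change 0.75, 0 called), and of 7 immune markers 5 were called higher (median 1.65). All 8 rod markers were positive there too (median 1.44, 0 called), while 4 of 6 red blood cell markers were negative (median -0.15, 0 called). In Old-OSK against Old-Control 6 of 7 endothelial markers (median -0.27) and 7 of 8 rod markers (median -0.15) were negative. All 6 red blood cell markers (median 0.64) and 5 of 7 immune markers (median 0.38) were positive in that comparison, with 0 called in each of these lists. With the rod marker score (mean log2 CPM) as a covariate, Aqp1 was 0.68 in Old against Young and 1.18 in Old-OSK against Old-Control. The part of these cell types in the Aqp1 result was not tested otherwise.

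**Figure D2:**
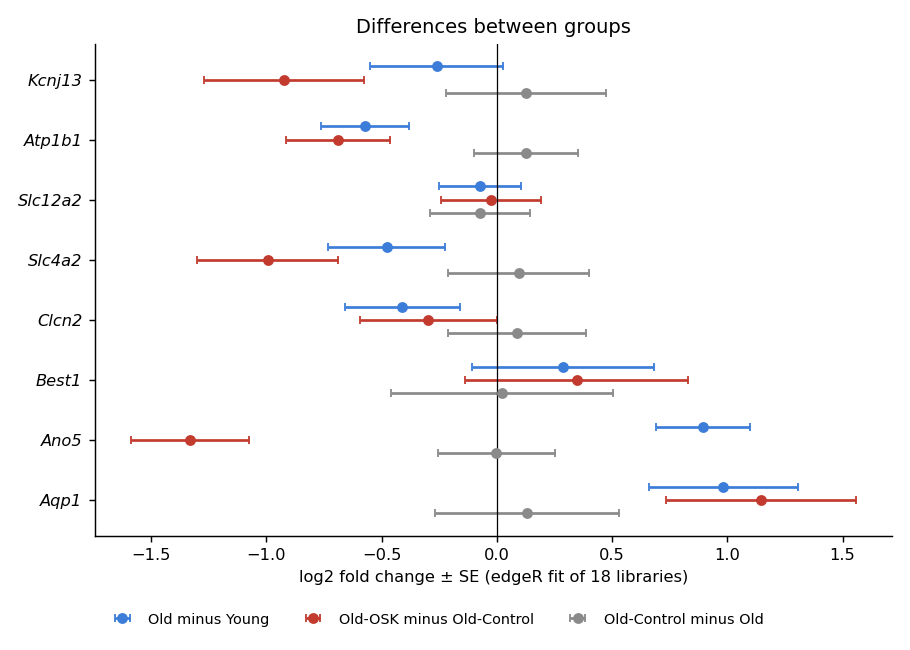
Log2 fold change (x axis) of the 8 genes in the 3 comparisons, with points for the fitted values and bars for their standard errors. Ano5 lies at 0.90 and Aqp1 at 0.98 in Old against Young, and in Old-OSK against Old-Control Ano5 is at -1.33 and Aqp1 at 1.15.

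Calls over all 15944 genes tested were made at an adjusted p below 0.05 in edgeR's quasi-likelihood test with Benjamini-Hochberg adjustment. In Old against Young 1 of the 8 was called higher (Ano5), where 5.4% of all genes were, and 0 were called lower, where 4.16% were. In Old-OSK against Old-Control 1 of the 8 was called lower (Ano5), where 0.32% of all genes were, and 0 were called higher, where 0.408% were. In Old-Control against Old 0 were called, and over all genes 0% were called higher and 0% lower, with 596 of 15944 at an unadjusted p under 0.05 and 0 called by DESeq2 also. Since the genes were picked with results known, nothing is read from these counts. Ranges that did not overlap were seen for 2 of the 8 upward and 1 downward in Old against Young (3.69% and 5.61% of all genes), and for 1 downward in Old-OSK against Old-Control (5.84%). The median log2 fold change of the 8 was -0.17 in Old against Young and -0.49 in Old-OSK against Old-Control, where all genes had -0.004 and -0.03. Old-Control against Old shares its libraries with both other comparisons. There the 8 lay between -0.07 and 0.13.

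The Ano5 call in Old-OSK against Old-Control depended on the libraries. What follows only describes it, since Ano5 was picked with results known. It was kept in 4 of 7 fits that left out 1 library and lost without Old-Control replicate 1 (-1.02), Old-OSK replicate 1 (-1.31) or Old-OSK replicate 2 (-1.28). It was also lost with the replicate number as a block (-1.28), in the same libraries without the block (-1.32) and in a fit of these 2 groups alone (-1.33). The value stayed negative in all of these. Without Old-Control replicate 2, Kcnj13, Atp1b1, Slc4a2 and Aqp1 were called along with Ano5, while calls over all genes went from 51 to 1874 lower and from 65 to 1007 higher.

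Across the libraries, 4 of the 8 genes varied with the level of the RPE markers. The 6 libraries with an RPE score under 10 (4 Old-OSK, Old replicate 4, Old-Control replicate 2) had 257 to 377 CPM of Slc4a2, 369 to 522 of Atp1b1 and 115 to 243 of Kcnj13. The other 12 had 664 to 1113, 615 to 1131 and 274 to 552 CPM. Clcn2 ran the same way with a small overlap (65.8 to 145 CPM and 142 to 214). Aqp1 ran the opposite way, at 60.3 to 168 CPM in the 6 and 13.4 to 67.3 in the 12. Slc12a2, Best1 and Ano5 showed no such split. The share of all genes that split between these libraries was not counted, so nothing is read from the number of members that did.

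All 10 RPE markers were themselves lower in Old-OSK than in Old-Control (median log2 fold change -1.01, 0 called). With the RPE score as a covariate, the Old-OSK against Old-Control difference was 0.19 for Kcnj13, -0.06 for Atp1b1, -0.04 for Slc4a2 and 0.57 for Clcn2. For Aqp1 it was 0.56. The score differs between Old-OSK and Old-Control, so the vector and the score cannot be told apart. In Old against Young the same covariate gave 0.16 for Kcnj13, -0.32 for Atp1b1, -0.14 for Slc4a2 and -0.13 for Clcn2. For Aqp1 it gave 0.71. The part of RPE content in the age differences was not tested otherwise.

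**Figure D3:**
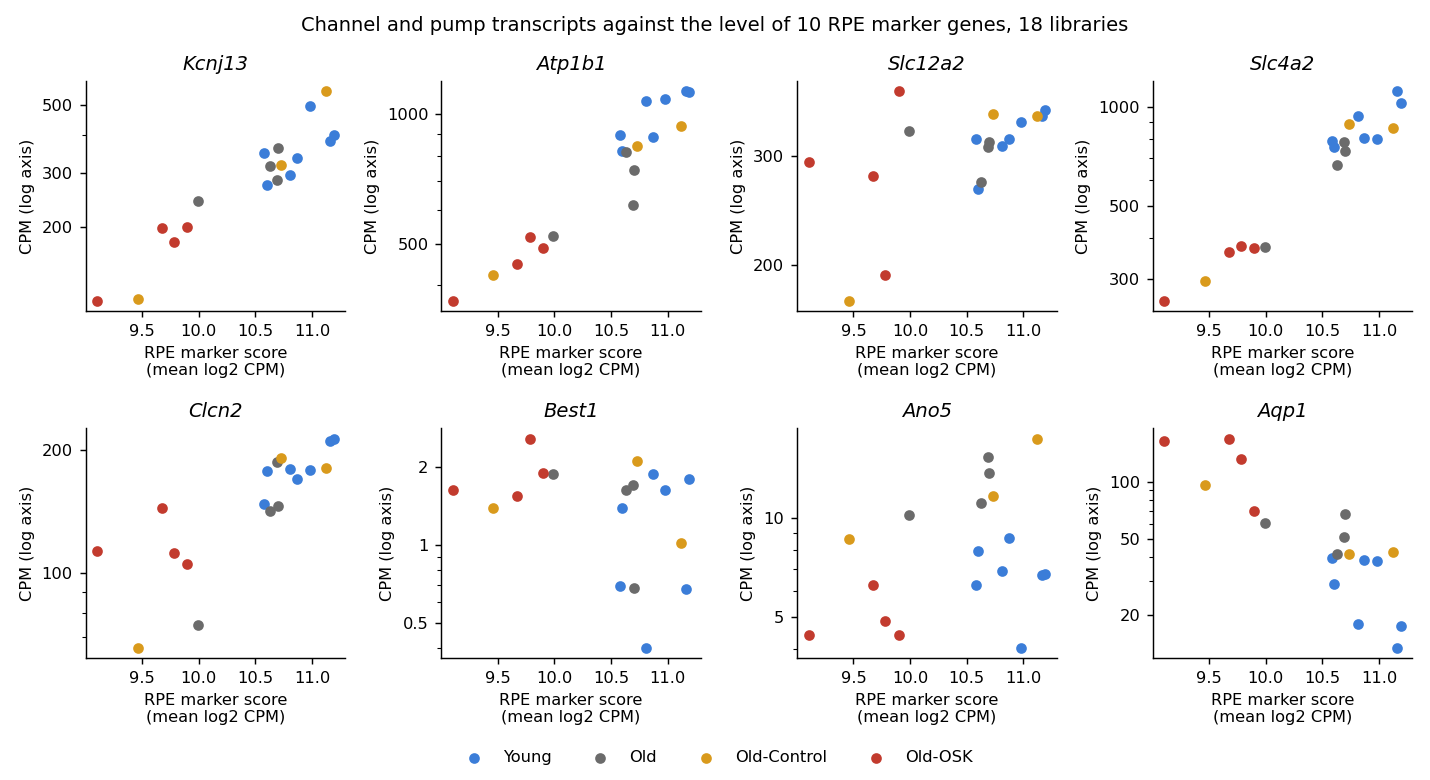
CPM (log axis) of the 8 genes against the RPE marker score (mean log2 CPM of 10 genes) in the 18 libraries, coloured by group. Slc4a2, Atp1b1 and Kcnj13 climb with the score, Aqp1 declines, and Ano5 and Best1 show no such course.

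As a description over 18 libraries that share depth, groups and RPE content, log2 CPM of Atp1b1 and Slc4a2 correlated at Pearson r = 0.953, Kcnj13 and Atp1b1 at 0.887, and Atp1b1 and Aqp1 at -0.899. Within the 7 Young libraries these values were 0.803, 0.608 and -0.663. Other pairs differed more between the 18 libraries and Young: Kcnj13 and Slc4a2 had 0.881 and 0.206, Kcnj13 and Aqp1 -0.705 and 0.0864, and Kcnj13 and Ano5 0.356 and -0.8. Over the 18 libraries Ano5 correlated with the other members between -0.165 and 0.356. Among 10227 well-detected genes, the pattern most like that of Kcnj13 was that of Sema3c (r = 0.974), for Atp1b1 it was Smpd1 (0.986), for Slc4a2 Slc7a10 (0.991), for Clcn2 Pxn (0.968), for Slc12a2 Myh14 (0.929), for Aqp1 Lgals9 (0.907), for Ano5 Clca3a1 (0.848) and for Best1 Mtarc2 (0.732). All are Pearson r over the 18 libraries. Each is the highest value of its search, and how high such a value runs for unrelated genes was not tested. The lowest, that of Best1, rests on 8 to 83 counts per library.

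Of the 49 other transport genes, all of which were tested, 1 rose and 3 fell in Old against Young (edgeR, adjusted over all genes). That is 2.04% and 6.12% of the list, beside 5.4% and 4.16% of all genes. Since the list was chosen with earlier results known, its p-values are not independent support. Clcn5, a chloride and proton exchanger of endosomes, fell from 46 ± 3.887 CPM (SD, n = 7) to 29.55 ± 5.713 (n = 4), or by -0.64 on the log2 scale (SE 0.13, edgeR adjusted p = 0.00999). Trpm7, a channel for magnesium and calcium with its own kinase, fell from 142.9 ± 14.22 to 98.23 ± 13.09 CPM (log2 fold change -0.54, SE 0.13, edgeR adjusted p = 0.0186). Kcnj2, the inward rectifier Kir2.1, rose from 0.799 ± 0.2055 to 1.906 ± 0.4607 CPM (1.25, SE 0.27, edgeR adjusted p = 0.0114), at a low level. Young and Old did not overlap for Clcn5, Trpm7 and Kcnj2.

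None of these 4 calls was kept without Old replicate 4, with log2 fold changes of -0.54, -0.45 and 1.10 for Clcn5, Trpm7 and Kcnj2. With Old-Control replicate 2 also left out, 1 and 3 were called. None was kept with the rod marker score as a covariate or among libraries without M. Calls over all genes, 861 higher and 663 lower, also dropped: to 233 and 160 without Old replicate 4, to 259 and 189 with the rod score and to 105 and 86 without M. Slc4a5, a sodium bicarbonate cotransporter, averaged 2187 ± 210.8 CPM in Young and 1433 ± 376.7 in Old (log2 fold change -0.61, edgeR adjusted p = 0.0854). Ano6 was at -0.31 (edgeR adjusted p = 0.092).

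By role, 12 of 14 chloride channels and anoctamins and 7 of 9 cotransporters and exchangers had negative values in Old against Young, with medians of -0.24 and -0.28. The 6 other sodium pump subunits were split 3 to 3 with a median of 0.04. Over the 49 genes, 35 were negative and the median was -0.21. Over all genes tested, 50.7% were negative and the median was -0.004. All 10 RPE markers were also negative in Old against Young (median -0.35, 0 called). The fits with a covariate, among them the RPE score, were also made for the list. Over the fits other than those leaving out 1 library, Clcn5 lay between -0.67 and -0.52 and Trpm7 between -0.56 and -0.37. Slc4a5 lay between -0.60 and -0.34, Ano6 between -0.37 and -0.23 and Kcnj2 between 1.045 and 1.406. The part of RPE content in the values of the list was not tested otherwise.

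In Old-OSK against Old-Control 0 of the 49 were called by edgeR, with 13 lower and 2 higher at an unadjusted p under 0.05. Both directions together are 30.6% of the list beside 26.3% of all genes, for which the split by direction was not counted. DESeq2 called 8 lower and 1 higher, beside 594 lower and 989 higher over all genes. Closest to the threshold was Clcn3, another endosomal exchanger, at 150.7 ± 15.25 CPM in Old-OSK (n = 4) and 240.1 ± 62.18 in Old-Control (n = 3), or -0.67 on the log2 scale (SE 0.16, edgeR adjusted p = 0.0559). Carbonic anhydrases, which supply bicarbonate, included Car14 at -1.04 (edgeR adjusted p = 0.076) and Car12 at -1.12 (edgeR adjusted p = 0.0788). The calcium channel gene Cacna1c was at -1.25 (edgeR adjusted p = 0.0735), Trpm3 at -0.87 (edgeR adjusted p = 0.0869) and Clcn4 at -0.30 (edgeR adjusted p = 0.0831). All 6 are negative. Leaving out Old-Control replicate 2 raised the calls to 13 lower and 3 higher, these 6 among them, and over all genes from 51 lower and 65 higher to 1874 and 1007. Other alternative fits, with the RPE score as a covariate among them, weakened the values. Over these fits the highest value was -0.07 for Trpm3, -0.09 for Car12 and -0.12 for Car14. It was -0.28 for Cacna1c, -0.31 for Clcn3 and -0.22 for Clcn4.

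In Old-Control against Old 0 of the 49 were called and 0 had an unadjusted p under 0.05. The 6 genes with the lowest p were Car2 (1.47), Kcnj10 (1.51), Car4 (-1.53), Slc4a7 (0.69), Atp1b2 (0.40) and Slc26a6 (0.39), all in log2 fold change and each at an edgeR adjusted p of 0.9. For Car2 and Kcnj10 the sign turned without Old-Control replicate 2 (-0.84 and -0.63), as it did for Slc4a7 (-0.41).

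**Figure D4:**
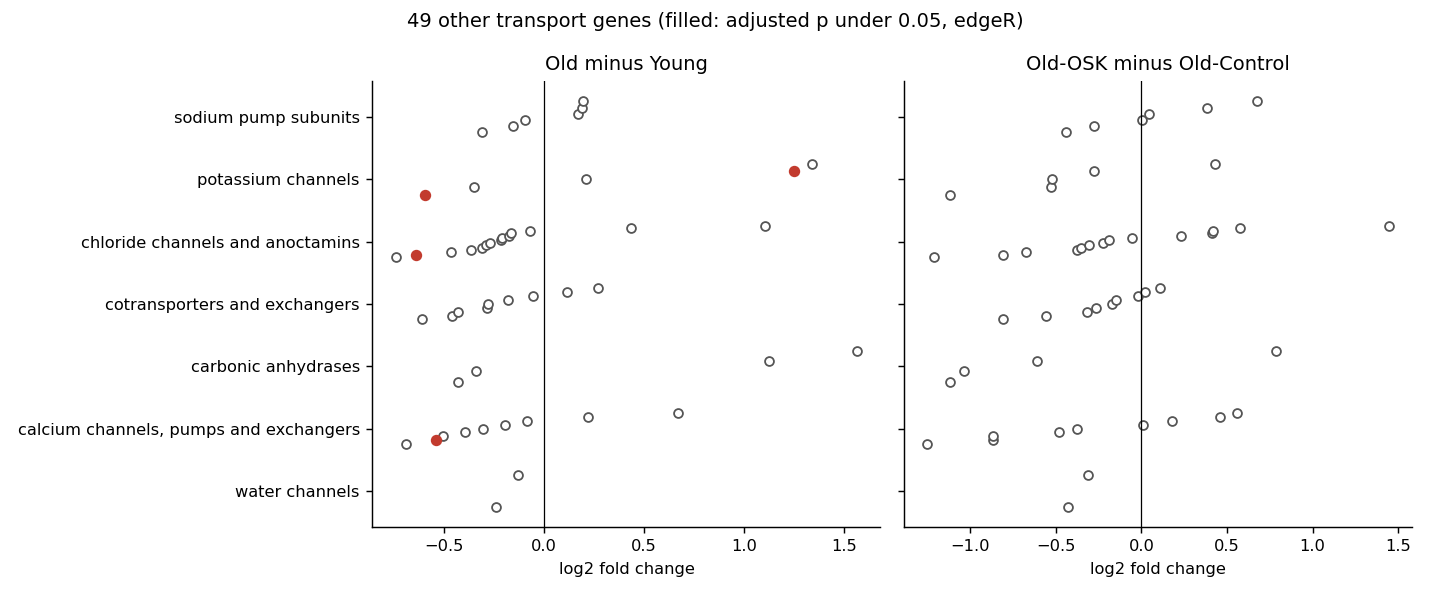
Log2 fold change (x axis) of the 49 other transport genes by role in Old against Young and in Old-OSK against Old-Control, with filled points for called genes. In Old against Young 1 gene is called higher and 3 lower, and in Old-OSK against Old-Control none is called.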

How the data were processed

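Per the labels' protocols, RNA was extracted with TRIzol and turned into full-length cDNA and transposase-cut libraries without strand marking. The authors deposited raw counts per gene for 18 libraries in 1 table. The submitters' processing notes name STAR 2.7.1a and featureCounts 1.6.2 and list human and mouse builds without a role. The annotation and the strand setting are not given in the sources used here. Of 21859 rows, 21462 carried a symbol in the gene name table. Reads were PCR-amplified without molecular identifiers, so counting error is a lower limit.

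Counts were filtered with filterByExpr (minimum count 10, minimum total 15), which left 15944 genes, scaled by TMM and fitted over all 18 libraries with 4 group means by edgeR 4.0.16 (quasi-likelihood, R 4.3.3). P-values were adjusted over all genes by Benjamini-Hochberg. CPM values use TMM library sizes. Scores and correlations use log2 CPM with a prior count of 2. The fit was tested on simulated data. Alternatives, including DESeq2 1.42.0, other filters, covariates, a replicate block and leaving out each library, were also fitted. Those named as chosen after seeing the data are the fits without M only, without both outlying libraries, and with the muscle score.

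The members and the gene lists were chosen with earlier results of these data known. All 8 members are named. Of the transport list, each comparison names its 6 lowest p-values and every called gene, and for each member the genes of highest Pearson r among genes averaging log2 CPM 3 or more. Other genes of the list are given with levels only, and some genes that meet the rule are not reported here.

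No replicates were merged, since every pair differed by a chi-square of 19.1 or more per gene. Deviations of Old-OSK and Old-Control libraries with the same number correlated at r = 0.103, 0.421 and 0.339 across genes. Y-linked counts differed within replicates 2 (5493 in Old-Control, 15 in Old-OSK) and 3 (5013 and 4). Shared numbers therefore do not establish pairs, and the main fit is unpaired. In Old against Young (-0.05, -0.02, 0.14 and -0.19) and Old-Control against Old (0.197, -0.189 and 0.359) the correlations had both signs.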

Additional observations from a re-analysis of the deposited data

Results flagged for a closer look

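Slc4a2 in Old-OSK replicate 2, at 257.4 CPM, lay far from the other 3 Old-OSK libraries (361 to 377 CPM) relative to the range of the group. It was the 1 such library among 24 pairs of a gene and a group examined, where chance gives about 1 in 20. The same library had the lowest RPE marker score of the 18 (9.11).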

How the results depend on the processing

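Of the 49 other transport genes, 1 was called higher and 3 lower in Old against Young. These counts became 0 and 0 with the rod marker score as a covariate, with the replicate block, and in the number-sharing libraries without the block, which are also the libraries without M only. Over all genes these fits gave 259 higher and 189 lower, 0 and 0, and 105 and 86. A filter at a mean count of 50 gave 0 higher, and a fit of only the 2 groups gave 3 higher. Leaving out 1 library gave 0 to 2 higher and 0 to 4 lower: 2 higher without Old replicate 1, 0 and 0 without Old replicate 4, and 1 lower without Young replicate 5. In Old-OSK against Old-Control the counts were 0 and 0, also with the replicate block. DESeq2 called 1 higher and 8 lower, and the filter at 50 called 1 lower. Leaving out 1 library gave 0 to 3 higher and 0 to 13 lower, with 13 lower without Old-Control replicate 2 and 7 without Old-OSK replicate 4. Leaving out Old replicate 4 and Old-Control replicate 2 together gave 3 higher and 16 lower (1492 and 2237 over all genes). The cause was not tested. In Old-Control against Old all alternatives gave 0. There Car2, Kcnj10 and Slc4a7 reversed without Old-Control replicate 2 (-0.84, -0.63 and -0.41), ranging from -0.84 to 1.98, -0.63 to 1.99 and -0.41 to 1.07 over the fits without 1 library, and without it and Old replicate 4 (-0.70, -0.58 and -0.32). With no call in that comparison, these signs rest on 1 library. Of the members' alternative values, 183 of 183 in Old against Young, 144 of 151 in Old-OSK against Old-Control and 150 of 151 in Old-Control against Old lay within 1 SD of the reported value, the SD being the pooled spread of log2 CPM between libraries of a group and not the SE. The sign changed in 3, 9 and 36 of them, in 2, 3 and 8 genes. As a description of a gene picked with results known, the Ano5 call in Old against Young held in 9 of 11 fits without 1 library. It held in 9 of 12 other distinct fits. It was lost with M as a covariate (0.81), with the replicate block (0.94) and in the number-sharing libraries. Counting depth limits Best1 and Ano5 most.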

Other observations

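Other bestrophin and chloride channel genes of the list were also measured. Best2 averaged 26.78 ± 22.82 CPM in Young (SD, n = 7) and 19.04 ± 3.74 in Old-OSK (n = 4), Best3 2.141 ± 0.433 and 1.265 ± 0.5333, and Cftr, the chloride channel of cystic fibrosis, 0.8493 ± 0.5826 and 0.8441 ± 0.3812. Clic6, an intracellular chloride channel protein, averaged 1467 ± 296.1 CPM in Young, 1062 ± 301.4 in Old (n = 4), 1086 ± 468.5 in Old-Control (n = 3) and 620.7 ± 131 in Old-OSK. These values are not per length, so they do not rank the genes against each other. None of the 4 genes was called in any of the 3 comparisons.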
